A study of Mus musculus with 12 samples.

Results

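The receptor components for calcitonin gene-related peptide (CGRP), pituitary adenylate cyclase-activating polypeptide (PACAP) and vasoactive intestinal peptide (VIP) were described in RNA sequencing libraries of mouse sensory ganglia. The members were chosen by gene symbol, as the receptors for these migraine-linked peptides and their accessory proteins. They were Calcrl, Ramp1, Ramp2, Ramp3, Crcp, Adcyap1r1, Vipr1 and Vipr2, which are 8 of the 22609 genes counted. All 8 were listed in every library, and 7 of them passed the filter on low counts. Vipr1 did not pass it.

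The libraries came from naive wild-type mice, all labelled Wt and C57BL and, in the methods, of the C57BL/6J strain. They were labelled as 3 to 4 months old, although the study's methods give a younger age. Trigeminal ganglia (TG) and dorsal root ganglia (DRG) were dissociated, and the cell layer enriched for neurons was taken from a Percoll density gradient. The 12 libraries comprised 3 each of male TG, female TG, male DRG and female DRG. The methods describe the females as being in the estrous phase and the DRG as lumbar, and neither the labels nor the methods say whether the 3 libraries of a group came from separate animals, so p-values measure only the spread between these libraries. The fraction was enriched for neurons by density and not sorted, and it held other cells.

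CGRP acts through Calcrl, a class B G protein-coupled receptor that reaches the cell surface and gains its ligand preference only together with a receptor activity-modifying protein (RAMP). With Ramp1 it forms the CGRP receptor, and with Ramp2 or Ramp3 it forms receptors for adrenomedullin, a vasodilator peptide. PACAP binds Adcyap1r1 (PAC1) with preference over VIP, whereas Vipr1 (VPAC1) and Vipr2 (VPAC2) bind both peptides, and all of these receptors can raise cyclic AMP. The CGRP system and PACAP are known for their part in migraine and in signalling between trigeminal neurons, glia and blood vessels.

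Between 7511765 and 15396090 reads per library fell in genes, and reads outside genes made up 37.6% to 50.4% of the reads in and outside genes. A count of 3, the most that a count of 0 allows, corresponded to 0.207 to 0.357 CPM (counts scaled to a common library size), depending on the library. Reads carried no molecular identifiers, so such limits cover counting error only. Female DRG 1 had the fewest reads in genes and the highest share outside them. Markers of sensory neurons were all detected, with a summed level of 6669 to 11521 CPM for 13 genes, and the sum for 12 endothelial markers was 357 to 1079 CPM. The summed levels were 1437 to 2881 CPM for 8 satellite glia markers, 2042 to 3124 CPM for 7 Schwann cell markers, 253 to 723 CPM for 10 mural cell markers, 682 to 2250 CPM for 8 fibroblast markers and 92.1 to 431.3 CPM for 8 macrophage markers. They were 29.6 to 77.0 CPM for 4 lymphatic markers, 0.931 to 9.34 CPM for the 6 T cell markers counted and 2.80 to 20.3 CPM for 5 erythroid markers, of which Hba-a1, Hba-a2, Hbb-b1 and Hbb-b2 were listed at 0 in all libraries. In such mixed samples, fewer cells of a type and less RNA per cell cannot be told apart.

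Calcrl, the receptor that pairs with the RAMPs for CGRP and for adrenomedullin, lies on the minus strand of chromosome 2 at 84170783-84265568 (build NCBIM37, mm9). It was detected in all 12 libraries, with 206 to 697 counts. In DRG its level was 56.1, 62.0 and 50.5 CPM in females and 19.2, 22.6 and 50.7 CPM in males. In TG it was 22.9, 50.8 and 27.3 CPM in females and 40.2, 36.7 and 40.5 CPM in males. All 3 female DRG libraries, 1 male DRG library and 1 female TG library were above 50 CPM, 2 male DRG libraries and 2 female TG libraries were lowest, and the ganglia overlapped. The DRG mean was 43.5 ± 18.0 CPM and the TG mean 36.4 ± 10.0 CPM (SD, n = 6).

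**Figure D1:**
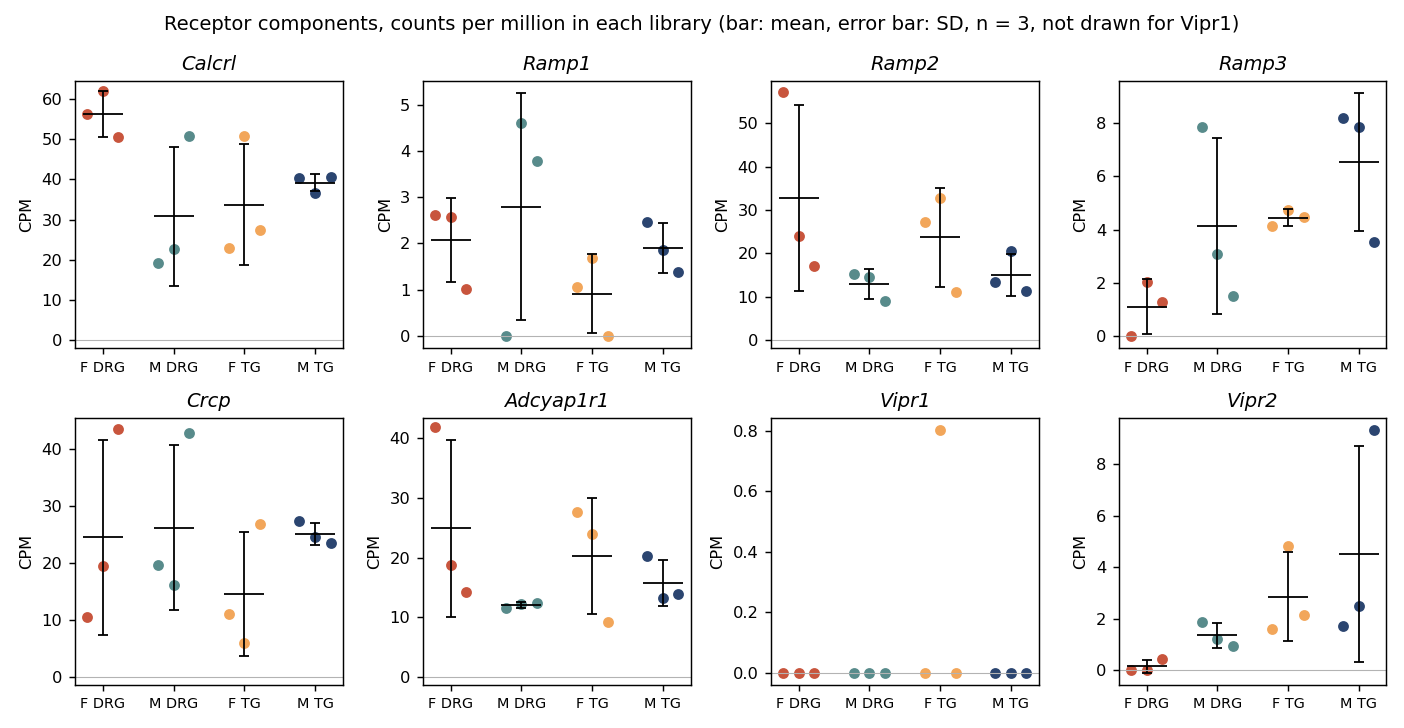
Level of each receptor component in CPM (y axis, linear) in the 4 groups (x axis: F, female; M, male), with a point for each library, the mean as a bar and the SD as an error bar (n = 3; Vipr1 shows points only). Calcrl reached 62.0 CPM in female DRG, Ramp1 stayed under 5 CPM, and Vipr1 was above 0 in 1 of 12 libraries.

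Ramp1, the RAMP that makes Calcrl a CGRP receptor, lies on the plus strand of chromosome 1 at 93076399-93121773. Its counts were low, at 0 to 49 per library, and 2 of 12 libraries were at 0. Its level was 2.62, 2.58 and 1.02 CPM in female DRG, 0, 4.60 and 3.78 CPM in male DRG, 1.06, 1.69 and 0 CPM in female TG, and 2.46, 1.86 and 1.38 CPM in male TG. Libraries at 0 occurred in both ganglia, beside others of the same group with 12 or more counts.

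Ramp2, which directs Calcrl to adrenomedullin and is known for its role in blood and lymphatic vessels, lies on the plus strand of chromosome 11 at 101107342-101120860. Its level was 57.3, 24.0 and 17.0 CPM in female DRG, 15.2, 14.6 and 8.98 CPM in male DRG, 27.2, 32.8 and 11.0 CPM in female TG, and 13.4, 20.6 and 11.4 CPM in male TG. Female DRG 1 was the highest library by a wide margin. The annotated exons of Ramp2 share 1103 bases with those of Vps25 on the same strand, and reads in that stretch could be assigned to either gene or set aside.

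Ramp3, the other adrenomedullin RAMP, lies on the plus strand of chromosome 11 at 6558524-6577478. Its level was 0, 2.04 and 1.27 CPM in female DRG and 7.85, 3.10 and 1.50 CPM in male DRG. In TG it was 4.13, 4.74 and 4.49 CPM in females and 8.19, 7.87 and 3.54 CPM in males. All TG libraries were above 5 of the 6 DRG libraries, and male DRG 1 lay among the high TG libraries.

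Crcp, the CGRP receptor component protein, which couples the receptor to its G protein and is also a subunit of RNA polymerase III, lies on the plus strand of chromosome 5 at 130505160-130536659. Its level was 10.5, 19.6 and 43.5 CPM in female DRG, 19.6, 16.2 and 42.8 CPM in male DRG, 11.0, 5.94 and 26.9 CPM in female TG, and 27.3, 24.6 and 23.5 CPM in male TG. Replicate 3 was the highest library in 3 of the 4 groups.

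Adcyap1r1, the PACAP receptor, lies on the plus strand of chromosome 6 at 55401972-55451445. Its level was 41.8, 18.8 and 14.2 CPM in female DRG, 11.6, 12.2 and 12.4 CPM in male DRG, 27.6, 23.9 and 9.30 CPM in female TG, and 20.2, 13.3 and 13.9 CPM in male TG. The male DRG libraries lay close together at 12.1 ± 0.442 CPM (SD, n = 3), and the female DRG libraries spread over 24.9 ± 14.8 CPM, with female DRG 1 on top as for Ramp2.

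The receptors that VIP and PACAP share were the rarest of the receptors. Vipr1, on the plus strand of chromosome 9 at 121551834-121582072, had 0 counts in 11 libraries, and 10 counts (0.803 CPM) in female TG 2. Vipr2, on the plus strand of chromosome 12 at 117316196-117384734, had 0, 0 and 0.423 CPM in female DRG and 1.87, 1.22 and 0.945 CPM in male DRG. In TG it had 1.58, 4.82 and 2.13 CPM in females and 1.73, 2.49 and 9.33 CPM in males. Vipr2 was at or under 20 counts in every DRG library and reached 95 counts in male TG 3, while the lowest TG libraries overlapped the highest DRG library.

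The stretches just before the starts of this receptor pair are printed because their messages contrasted, with Vipr1 at 0 in nearly all libraries and Vipr2 present in 10 of 12. They are the 250 bases before each start (RefSeq, build GRCm38.p6), 5′ to 3′ on the gene's strand, at chr9:121642466-121642715 for Vipr1 and chr12:116077476-116077725 for Vipr2, with the GC box letters GGGCGG or their reverse complement CCGCCC in capitals.
Vipr1: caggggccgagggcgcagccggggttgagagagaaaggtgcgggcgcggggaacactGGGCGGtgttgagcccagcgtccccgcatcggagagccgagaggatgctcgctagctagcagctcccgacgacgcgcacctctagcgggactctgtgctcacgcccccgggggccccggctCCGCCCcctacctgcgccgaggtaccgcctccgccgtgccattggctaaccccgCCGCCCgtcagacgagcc
Vipr2: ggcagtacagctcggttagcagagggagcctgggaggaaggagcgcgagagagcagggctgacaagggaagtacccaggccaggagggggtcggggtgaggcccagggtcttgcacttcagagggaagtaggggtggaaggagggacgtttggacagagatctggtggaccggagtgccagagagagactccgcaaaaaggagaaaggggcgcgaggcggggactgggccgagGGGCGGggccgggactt
The Vipr1 stretch held 3 GC boxes and 30 CpG dinucleotides, and that of Vipr2 held 1 and 13. Among all promoters of this length in the table, 32.7% of 32851 held a GC box, and 5 of the 6 members in the table did. The cyclic AMP response element letters TGACGTCA, which are their own reverse complement, occurred in 1.55% of all promoters and in 0 of 6 members. A match of letters is a description and shows no binding.

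Levels were compared between genes per kilobase of exon, as RPKM, which scales reads by exon length and library size. In TG the order of mean RPKM was Crcp (12.6), Calcrl (7.45), Ramp2 (5.88), Ramp3 (3.98), Adcyap1r1 (2.73), Vipr2 (1.06), Ramp1 (0.465) and Vipr1 (0.0241). In DRG it was Crcp (16.1), Calcrl (8.91), Ramp2 (6.93), Adcyap1r1 (2.80), Ramp3 (1.90), Ramp1 (0.805), Vipr2 (0.215) and Vipr1 (0). In both orders the range of each gene over the 6 libraries overlapped that of its next neighbour. Compared within libraries, Ramp2 was above Adcyap1r1 in 6 of 6 DRG libraries. Every other gene was above its next neighbour in 4 or 5 of 6 libraries. With the length of the longest transcript in place of all exons, Ramp2 had 13.1 RPKM in TG and 15.5 RPKM in DRG and stood second in both orders.

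Within a library, the RAMP messages were set against their own sum on the RPKM scale, which does not depend on scaling between libraries. Ramp2 made up the largest mean share, with 55.6% ± 13.3 in TG and 67.3% ± 19.4 in DRG (SD, n = 6). Ramp3 made up 40.0% ± 12.5 in TG and 22.3% ± 18.5 in DRG, and Ramp1, the CGRP-directing RAMP, 4.42% ± 2.77 and 10.4% ± 9.39. The length decided the Ramp3 share, which was 25.0% in TG and 13.6% in DRG with the longest transcript, and 22.6% and 12.02% in raw counts. Ramp3 exceeded Ramp2 in male DRG 1 and male TG 1, and Ramp2 was highest in the other 10 libraries, but with the longest transcript or with raw counts Ramp2 was highest in all 12. In DRG the Ramp2 share was 75.7% to 95.3% in females and 44.8% to 54.1% in males, without overlap. In TG it was 50.7% to 71.4% in females and 37.5% to 53.4% in males, with overlap. The sexes were also apart in the Ramp3 share in DRG and in the Ramp1 share in TG. The same held in DRG for the Adcyap1r1 and Vipr2 shares given below. In CPM the sexes did not overlap for 17.4% of genes in DRG and 23.8% in TG, and no such rate was worked out for shares. These ranges use exon-union lengths, and the separation was not tested with other lengths. Calcrl amounted to 0.774 ± 0.294 of the summed RAMP level in TG and 1.09 ± 0.669 in DRG. The ratio was 0.460 and 0.589 with the longest transcript and 1.52 and 1.85 in raw counts.

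Of the summed PACAP and VIP receptor level, Adcyap1r1 made up 43.9% to 90.1% in TG, with a median of 71.9%, and 76.5% to 100% in DRG, with a median of 91.0%. Vipr2 made up 9.87% to 56.1% in TG and 0% to 23.5% in DRG. Male TG 3 was the only library in which Vipr2 exceeded Adcyap1r1.

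**Figure D2:**
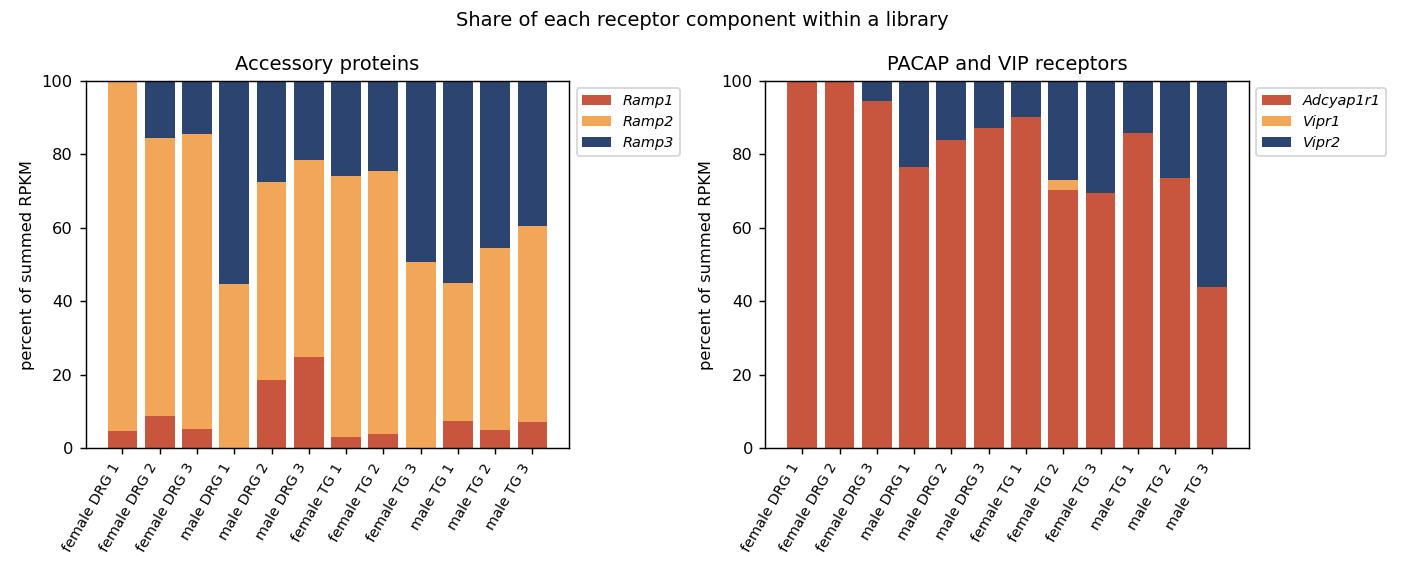
Percent of the summed RPKM (y axis) that each component makes up in each of the 12 libraries (x axis), with exon-union lengths, for the 3 RAMPs and for the 3 PACAP and VIP receptors. Ramp1 is at most 24.7% in any library, and Adcyap1r1 makes up 43.9% to 100% of its sum.

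The first comparison asked how TG and DRG fractions differ, with all 12 libraries in one model with a mean for each group. None of the 7 members tested was called at an adjusted p under 0.05 by edgeR's quasi-likelihood test with Benjamini-Hochberg adjustment, against 0.964% of all genes (143 of 14829). At an unadjusted p under 0.05 there was 1 of 7 members, Vipr2, against 8.83% of genes, and DESeq2 called 1 of 7, also Vipr2, against 2.25% of genes by the same tool. For 0 of 7 members were all TG libraries apart from all DRG libraries in CPM, against 1.36% of genes.

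Vipr2 was 2.95 ± 0.97 higher in TG on the log2 scale (SE, edgeR, unadjusted p = 0.00721, adjusted p = 0.240). DESeq2 gave 2.98 with an adjusted p of 0.0191. The size of this difference rested on few counts in female DRG, where only female DRG 3 had any (5). Without female DRG 3 the fitted difference was 4.88 (edgeR adjusted p = 0.0636). Without male TG 3, which had the most Vipr2 counts (95), it was 2.42 (edgeR unadjusted p = 0.0491, adjusted p = 0.698). Without a sex term it was 2.28 (edgeR adjusted p = 0.651). It was 4.21 in females alone and 1.75 in males alone, with unadjusted p-values of 0.0578 and 0.0592 in edgeR.

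Ramp3 was 1.32 ± 0.70 higher in TG on the log2 scale (SE, edgeR, adjusted p = 0.639). Ramp1 differed by -0.86 ± 1.08 and Crcp by -0.41 ± 0.38 (log2 TG over DRG, SE), with edgeR adjusted p-values of 0.957 and 0.909. The 95% intervals of the log2 difference were -1.20 to 0.39 for Crcp, -0.74 to 0.34 for Calcrl, -0.82 to 0.58 for Ramp2 and -0.61 to 0.71 for Adcyap1r1. All of these intervals include 0, and log2 differences inside them are compatible with these libraries. The median log2 difference was -0.12 over the 7 members and -0.01 over all genes tested.

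**Figure D3:**
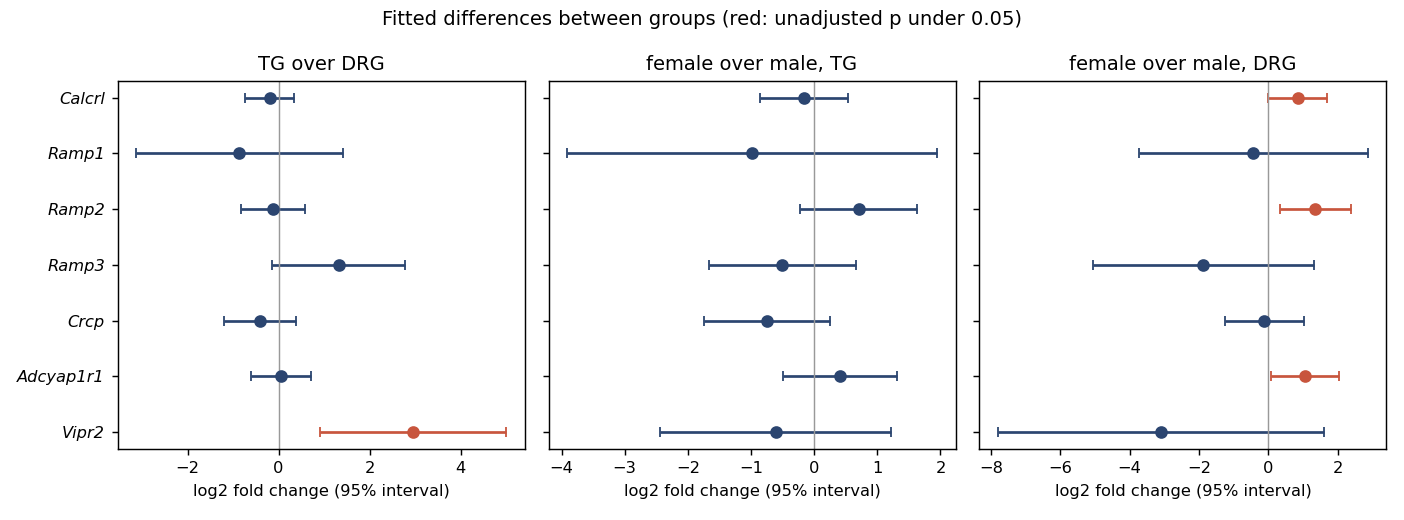
Fitted log2 fold changes (x axis) with 95% intervals for the 7 members tested (y axis), for TG over DRG and for female over male in TG and in DRG (edgeR); red marks an unadjusted p under 0.05. Vipr2 is at 2.95 for TG over DRG, and Calcrl, Ramp2 and Adcyap1r1 lie at 0.85 to 1.36 for female over male in DRG.

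The second comparison asked whether the sexes differ within a ganglion. Thresholds adapted from the study's were applied, namely a fold change above 2, an unadjusted p under 0.05 in edgeR and a mean above 1 CPM in the higher sex. The study used another count test and set its level threshold in RPKM, and in the main fits a mean above 1 RPKM gave the same numbers of members. In DRG, 2 of 7 members met them, Ramp2 and Adcyap1r1, both higher in females, against 4.93% of genes in either direction and 2.01% higher in females. None of the 7 had an adjusted p under 0.05 in edgeR, and 0 of 13963 genes did, not counting genes that mark the sex. At the same adjusted p, DESeq2 called 317 of 13963 genes and no member, so the count over all genes depended on the tool. DESeq2, in which the same 2 members met the thresholds, against 5.44% of genes, gave an adjusted p to Calcrl alone (0.218). At an unadjusted p under 0.05 in edgeR there were 3 of 7, against 11.8% of genes. Female and male DRG libraries did not overlap in CPM for Ramp2, Adcyap1r1 and Vipr2, 3 of 7 members, against 17.4% of genes.

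Ramp2 was 1.36 ± 0.47 higher in female DRG on the log2 scale (SE, edgeR, unadjusted p = 0.0135, adjusted p = 0.328). Adcyap1r1 was 1.05 ± 0.45 higher (edgeR unadjusted p = 0.0370, adjusted p = 0.392), and Calcrl 0.85 ± 0.39 higher (edgeR unadjusted p = 0.0490, adjusted p = 0.422), a fold change below 2. Without female DRG 1, no member met the thresholds, and the log2 differences of Ramp2 and Adcyap1r1 were 0.67 and 0.44 (edgeR unadjusted p = 0.135 and 0.310). Without male DRG 3, Calcrl met them at 1.46, as did 8.16% of genes, while Ramp2, at 1.17, and Adcyap1r1, at 1.10, did not (edgeR unadjusted p = 0.00116, 0.0554 and 0.0662), and Adcyap1r1 also fell out without male DRG 1 or male DRG 2 (edgeR unadjusted p = 0.0818 and 0.0878). With a correction for GC content and length, Calcrl met them at 1.38, Ramp2 at 1.19, and Adcyap1r1 did not at 0.74, against 3.19% of genes that met them. Vipr2, at 0.141 ± 0.244 CPM in female and 1.34 ± 0.474 CPM in male DRG (SD, n = 3), was lower in females by a fitted log2 difference of -3.10 with a 95% interval of -7.80 to 1.60.

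Markers of cell types were counted at the same thresholds in DRG, which 4.93% of all genes met, and 2.01% with a higher level in females. Of 12 endothelial markers, 7 met the thresholds, all higher in females, and none was at 0. Their summed level was 459 to 1073 CPM in female and 357 to 490 CPM in male DRG. Of 9 mural cell markers tested, 3 met them, as did 1 of 8 fibroblast, 2 of 8 macrophage and 1 of 13 sensory neuron markers, all higher in females. Of 2 T cell markers tested, 1 met them, higher in males. None of the 8 satellite glia, 7 Schwann cell, 3 lymphatic and 1 erythroid markers tested met them. In TG, 7.37% of all genes met them, and no member did. There 3 of 12 endothelial, 3 of 9 mural cell and 3 of 8 fibroblast markers met them, all higher in females. So did 2 of 8 macrophage, 2 of 7 Schwann cell and 1 of 13 sensory neuron markers. The 1 erythroid marker tested met them, higher in males, and no satellite glia, lymphatic or T cell marker did. Female DRG 1, 2 and 3 had endothelial sums of 1006, 1073 and 459 CPM. In the same order Calcrl was 56.1, 62.0 and 50.5 CPM, Ramp2 57.3, 24.0 and 17.0 CPM, and Adcyap1r1 41.8, 18.8 and 14.2 CPM. The part of endothelial RNA in the sex differences of the members in DRG was not tested.

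**Figure D4:**
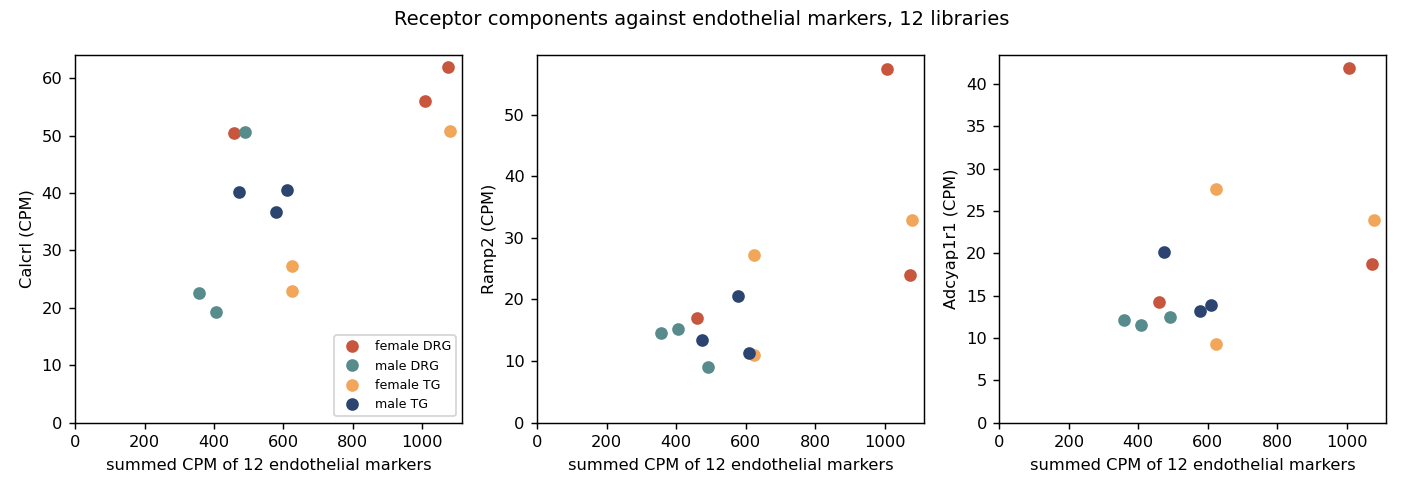
Calcrl, Ramp2 and Adcyap1r1 (y axes, CPM) against the summed CPM of 12 endothelial markers (x axes) in the 12 libraries, coloured by group. Female DRG 1, female DRG 2 and female TG 2 lie to the right, at sums of 1006 to 1079 CPM, and all other libraries lie at 357 to 624 CPM.

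In TG, 0 of 7 members met the thresholds in edgeR or DESeq2, against 7.37% of genes in edgeR. No member was called by adjusted p in edgeR, and 0 of 14009 genes were. By adjusted p in DESeq2, 748 of 14009 genes were called and no member was. No member had an unadjusted p under 0.05 in edgeR, against 20.7% of genes, and for none were female and male TG libraries apart, against 23.8%. The log2 differences, female over male, were 0.70 ± 0.42 for Ramp2, 0.42 ± 0.41 for Adcyap1r1, -0.75 ± 0.46 for Crcp and -0.16 ± 0.32 for Calcrl (SE). Female TG 3 decided this result for Crcp and Ramp2. Without it Crcp was lower in females by -1.57 and met the thresholds (edgeR adjusted p = 0.0102), and Ramp2 was 0.99 higher in females (edgeR adjusted p = 0.0391), a fold change just below 2. Over all genes, 23.6% passed an adjusted p under 0.05 and 17.6% met the thresholds without that library, against 2 and 1 of 7 members.

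The difference between the sexes in the TG against DRG effect was tested as an interaction. No member and no gene passed at an adjusted p under 0.05 in edgeR or DESeq2. At an unadjusted p under 0.05 there was 1 of 7 members in edgeR, Calcrl, against 1.97% of genes, and 0 of 7 in DESeq2. The TG over DRG difference of Calcrl was lower in females than in males by -1.08 ± 0.51 on the log2 scale (SE, edgeR unadjusted p = 0.0498, adjusted p = 0.9998).

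The genes of the peptides that act on these receptors were counted in the same libraries, and 5 of the 10 listed passed the filter. Calca, which encodes calcitonin and CGRP alpha, had 630 to 1924 CPM in TG, with a median of 1064 CPM, and 1132 to 3169 CPM in DRG, with a median of 1616 CPM. Its log2 difference, TG over DRG, was -0.69 (edgeR adjusted p = 0.213, DESeq2 adjusted p = 0.0321). Calcb, which encodes CGRP beta, had 77.8 to 279.6 CPM in TG and 189 to 551 CPM in DRG and fell by 1.10 on the log2 scale in TG (edgeR adjusted p = 0.0132), which DESeq2 also called. The edgeR call was lost without female TG 1 or without male DRG 2 (log2 differences -1.03 and -0.99, edgeR adjusted p = 0.0554 and 0.0559). It was also lost without a sex term, in females alone and in males alone (edgeR adjusted p = 0.205, 0.407 and 0.314), where the log2 differences were -1.07, -1.20 and -0.99. Adcyap1, which encodes PACAP, had 96.3 to 157.7 CPM in TG and 134 to 174 CPM in DRG, with a log2 difference of -0.33 (edgeR adjusted p = 0.601). Adm, which encodes adrenomedullin, had at most 8.26 CPM in any library, with a log2 difference of -0.93 (edgeR adjusted p = 0.808).

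Vip was the ligand with the most uneven level. It had 178.5 CPM in male TG 1, 149.3 CPM in male TG 3 and 14.0 CPM in female TG 3, and at most 0.551 CPM in the other 9 libraries. The TG over DRG call for Vip (log2 difference 8.79, edgeR adjusted p = 0.0244) thus rested on 3 of 6 TG libraries. Without female TG 3 all other female libraries were at 0, so the contrast averaged over the sexes gives no value. The call was lost without female DRG 2, male DRG 1, male DRG 2, male DRG 3 or male TG 3, with log2 differences of 8.53 to 9.81 and edgeR adjusted p-values of 0.0548 to 0.0809. The male TG library with the most Vip was not the one with the most Vipr2, which was male TG 3. Iapp, Adm2, Ghrh and Gcg, which encode peptides of related receptors, were listed at 0 in all libraries, and Sct did not pass the filter.

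Of the 11 other class B receptors listed, 5 passed the filter and 0 were called between TG and DRG in edgeR or DESeq2, against 0.964% and 2.25% of all genes. Also, 0 had an unadjusted p under 0.05 in edgeR, against 8.83% of all genes. Pth1r, the parathyroid hormone receptor, had the highest level per kilobase among them, at 10.0 ± 4.51 CPM for TG and 10.1 ± 4.86 CPM for DRG (SD over 6 libraries each). Calcr, which forms amylin receptors with the RAMPs, was at 0 in all libraries, as were Sctr, Ghrhr, Glp2r, Gipr and Gcgr. Of 35 genes of cyclic AMP signalling tested, 0 were called by edgeR's adjusted p, and 4 were higher in TG and 2 lower at an unadjusted p under 0.05, against the 8.83% of all genes. DESeq2 called 1 of them, Adcy9, an adenylyl cyclase gene, with an edgeR log2 difference of 0.83 (edgeR adjusted p = 0.0521). The regulatory subunit gene Prkar1a had the highest level per kilobase, at 2172 ± 751 CPM for TG and 2285 ± 780 CPM for DRG (SD over 6 libraries each). Of 12 RNA polymerase III genes, the complex that Crcp also belongs to, 0 were called in edgeR or DESeq2, and 1 was lower in TG at an unadjusted p under 0.05 in edgeR, against the same shares of all genes. Polr3g had the highest level per kilobase, at 105 ± 51.9 CPM for TG and 156 ± 66.9 CPM for DRG (SD over 6 libraries each).

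Likeness between genes was described by Pearson's r of log2 CPM over the 12 libraries, which share their depth and group differences. Among the members, Ramp2 and Adcyap1r1 were most alike (r = 0.86, and 0.80 after the group means were subtracted), and Ramp2 and Crcp were most opposed (r = -0.75, and -0.90 within groups). For each member tested, the 3 genes of highest r were picked from all genes tested, and no chance level of r was worked out. Those most like Calcrl were Zmynd11 (0.92), Tek (0.91) and Dkc1 (0.91). For Ramp2 they were Dlg3 (0.93), Plin3 (0.93) and Bmf (0.92), and for Adcyap1r1 Kctd15 (0.95), Sox13 (0.94) and Lzts2 (0.91). For Crcp they were Rnf19a (0.97), Shoc2 (0.97) and Glce (0.96). The genes most like the 3 sparsely counted members were Cytip (0.93), Refbp2 (0.91) and AI450353 (0.90) for Ramp1, Hunk (0.97), Ufsp1 (0.96) and 2410004N09Rik (0.94) for Ramp3, and Lmo3 (0.91), Car14 (0.90) and Kctd19 (0.90) for Vipr2, most of which were themselves at 0 counts in some library.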

How the data were processed

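RNA of Percoll-enriched neuronal fractions from 12 mouse ganglion preparations was sequenced as stranded, rRNA-depleted single reads. The authors aligned reads to mm9 with TopHat2 and deposited raw HTSeq counts per gene; tool versions, annotation and strand setting are not given in the sources used here. The 5 summary lines of each file were left out.

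Groups came from the labels. Counts were tested with edgeR 4.0.16 (R 4.3.3; filterByExpr, TMM, quasi-likelihood F test, Benjamini-Hochberg over all genes tested): TG against DRG and the interaction in 12 libraries with 4 group means, and the sexes in the 6 libraries of a ganglion. In the sex counts, 6 sex-check genes were left out. CPM used TMM-scaled library sizes, and RPKM used exon-union lengths from GENCODE of the same build, which matched 21714 of 22609 symbols. The fits were tested on simulated data. Alternatives covered scaling, filters, DESeq2 1.42.0, replicate block, GC-length offsets (natural splines with 5 degrees of freedom), left-out libraries, single-sex fits, length and the level criterion. Bias-adjusted edgeR and the longest transcript for shares were added after seeing the data.

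The text names the 8 members, ligands with a mean of at least 1 CPM in a ganglion, called genes and the highest gene per kilobase of other pathway lists, markers at 0, and for each member the 3 genes of highest Pearson r (log2 CPM, prior count 2). The members and lists were chosen with earlier results of these data known. Xist counts matched the labelled sex in 12 of 12 libraries. No 2 libraries of a group agreed within sampling noise. Chi-square per degree of freedom was 13.5 to 31.2 between replicates 1 and 2 of a group, and 51.5 to 106 for pairs with replicate 3.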

Additional observations from a re-analysis of the deposited data

Results flagged for a closer look

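In 3 of 15 sets of 6 libraries of a ganglion, a member's highest library stood apart, with a gap to the nearest library, as a share of the whole range, above the critical value of Dixon's test. For independent, normally distributed values chance flags about 1 in 20 groups. Counts near 0 do not follow that distribution, and Ramp2 and Adcyap1r1 were correlated (r = 0.86), so the 3 flags were not weighed against this rate. For Ramp2 in DRG the share was 0.689, with female DRG 1 at 57.3 CPM (482 counts). For Adcyap1r1 in DRG it was 0.763, with the same library at 41.8 CPM (352 counts). For Vipr1 in TG it was 1.0, with female TG 2 at 0.803 CPM (10 counts) and the other 5 libraries at 0, which fixes the share at 1.0. Female DRG 1 was also the library with the fewest reads in genes (7511765) and the highest share of reads outside genes (50.4%), and the part of these properties in its levels was not tested.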

How the results depend on the processing

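No member was called between TG and DRG under any alternative except DESeq2, which called 1, Vipr2. Leaving out 1 library at a time gave 0 to 0 members. Over all genes the 143 calls became 333 with DESeq2, 218 without a filter, 220 with the bias-adjusted test, 344 without female DRG 1 and female TG 3, 5 in females only, 58 in males only, and 77 to 231 with 1 library left out. Members meeting the sex thresholds numbered 0 to 2 in DRG and 0 to 1 in TG with 1 library left out, and the interaction gave 0 to 0.

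With the replicate number as a block, the TG against DRG calls rose to 562, or 511 with GC-length offsets, while no member was called. Same-numbered libraries correlated at 0.0277 to 0.216 in their deviations from the group means between ganglia (4 of 6 pairs over 0.1), at -0.0984 to 0.00983 between the sexes in TG and at 0.0317 to 0.168 in DRG. Differently numbered libraries of the same sex correlated at -0.197 to 0.0977 between ganglia. Neither labels nor methods say whether same-numbered libraries share animals, and the main fit did not pair them. Under the block, Calcrl (1.01) met the DRG thresholds and Adcyap1r1 (0.89) did not. Calcrl also met them with library totals (1.04), and Vipr2 in the fit of all 12 libraries (-3.09). In that fit of all 12 libraries, 3 members met the thresholds in CPM and 2 with a mean above 1 RPKM. Vipr2 had a mean of 0.389 RPKM in male DRG.

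Directions turned for values that were not called, and the cause was not tested. For TG over DRG (log2), Adcyap1r1 was -0.11 with GC-length offsets, -0.092 with offsets and block, -0.29 in females only and -0.034 without a sex term; Calcrl was 0.32 in males only; Ramp2 was 0.23 in males only and 0.39 without female DRG 1 and female TG 3. Without those 2 libraries the interaction was 0.26 for Adcyap1r1, 0.17 for Ramp1 and 0.32 for Ramp2. For female over male in DRG, Crcp was 0.016 with library totals, 0.25 with offsets and 0.31 with offsets and block, and Ramp1 was 0.18 with the block and 0.12 with both. In TG, Adcyap1r1 was -0.16 with offsets and -0.17 with both, and Calcrl 0.44 and 0.30. With 1 library left out, the values that turned ran from -0.098 to 0.34 for Adcyap1r1, -0.41 to 0.082 for Calcrl and -0.27 to 0.22 for Ramp2 (TG over DRG), from -1.47 to 0.020 for the interaction of Crcp, from -0.82 to 0.48 for Crcp and -1.003 to 0.075 for Ramp1 (DRG sexes), and from -0.64 to 0.00053 for Calcrl and -1.27 to 0.49 for Vipr2 (TG sexes).

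In TG, raw counts gave a Ramp2 share of 72.0%, a Ramp3 share of 22.6% and a Calcrl ratio of 1.52, and the longest transcript gave 71.9%, 25.0% and 0.460; in DRG the Calcrl ratio was 1.85 in raw counts and 0.589 with the longest transcript. With the longest transcript Ramp2 was at 13.1 RPKM in TG and 15.5 RPKM in DRG. Depth limits Ramp1, Ramp3, Vipr1 and Vipr2, which had 0 counts in at least 1 library.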
